A study of Mus musculus with 24 samples.

Results

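The Notch pathway and secretory lineage switch of the mouse small intestine was followed through 10 genes, taken by symbol from the 54146 genes counted in every library. They were 2 receptors (Notch1, Notch2), 3 ligands (Dll1, Dll4, Jag1), 3 genes that Notch signalling commonly induces (Hes1, Hey1, Nrarp) and 2 transcription factors of the secretory lineage (Atoh1, Gfi1). Of the 10 genes, 9 had enough counts to be tested in both experiments, and Hey1 did not, at 0 to 5 counts per library.

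Notch is a cell contact pathway: a ligand on the surface of a cell engages a receptor on its neighbour, the receptor is cut, and its intracellular domain enters the nucleus, where it joins the DNA-binding protein RBPJ and co-activators to switch on target genes. In the crypts of the small intestine, stem and absorptive cells receive this signal and express Hes1, a repressor of Atoh1, whereas cells that escape it express Atoh1 and enter the secretory lineage of Paneth, goblet, enteroendocrine and tuft cells. CDK8 and its paralogue CDK19 are alternative kinase subunits of the Mediator complex, which links transcription factors to RNA polymerase II, and CDK8 is known to phosphorylate the intracellular domain of Notch.

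RNA was sequenced from mouse small intestinal organoids, which are cultures of epithelium grown from crypts, as 24 libraries, split evenly into a genotype and an inhibitor experiment, each of 4 groups in triplicate. In the genotype experiment, WT organoids came from Cdk8 lox/lox mice, Cdk8-/- organoids from Cdk8 lox/lox mice that carry Villin-CreERT2, Cdk19-/- organoids had been edited with a guide to Cdk19, and double knockouts (Cdk8-/-/Cdk19-/-) carried both changes. The culture protocol gives 7 days of 600 nM 4-hydroxytamoxifen, the drug that activates this Cre in villin-expressing epithelium, so that Cre and loss of Cdk8 cannot be told apart in any comparison with WT. Single edited organoids were picked and expanded, which makes each Cdk19-targeted line clonal. The guide and Cas9 came on a lentivirus and puromycin selection followed, steps the study does not describe for the other lines. If the others lacked them, these steps and loss of Cdk19 cannot be told apart. In the second experiment, WT organoids, as the study describes them, received 10 µM Senexin B, an inhibitor of both kinases, or the solvent DMSO for 16 or 24 h, which asks whether kinase inhibition acts on these genes as gene loss does.

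Gene counts summed to 14636861 to 15473180 per library in the genotype experiment and 27075937 to 28405118 in the Senexin B experiment. The counts were taken for the second strand, which held 49.6% to 49.7% of the gene counts summed over both strands in the genotype experiment, so those libraries carry no strand information, and 87.9% to 90.5% in the Senexin B experiment. Counts over the whole of each targeted gene did not follow the labels in every library. Cdk8 lay between 42.4 and 57.3 CPM (counts-per-million of the normalised library size) in the libraries labelled Cdk8-/- against 35.8 to 43.2 CPM in WT, although a count over all exons cannot show the loss of a single exon. Cdk19 was 28.1 and 28.3 CPM in 2 libraries labelled Cdk19-/- and 48.8 CPM in replicate 1, and 23.8 and 27.0 CPM in 2 libraries labelled double knockout and 51.7 CPM in replicate 3, against 47.6 to 50.1 CPM in WT. A count over the whole gene need not fall after a short deletion, so these values do not show which libraries carry the edit. The study reports efficient removal of Cdk8 from its organoids by genotyping and protein blots. For Cdk19 it reports absence of the protein and, by qPCR, loss of the mRNA. It also describes a return of CDK8 protein in some double knockout lines after longer culture. These tests are not linked to single libraries. The genotype libraries carry the cell type label 4T1, a mouse mammary tumour line. Their 5 mammary and basal epithelial markers summed to at most 0.876 CPM, with Csn2 at 0 throughout, while 8 enterocyte markers summed to 5096 CPM or more. Markers of endothelial, mesenchymal and immune cells each summed to at most 7.15 CPM in both experiments.

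Per kilobase of exon, Hes1 had the highest level of the 10 genes in WT organoids and Hey1 the lowest. Hes1 reached 64.0 ± 1.06 RPKM, that is CPM per kilobase of exon (mean ± SD, n = 3, as for the values that follow). Nrarp, a feedback inhibitor of Notch, followed at 22.1 ± 3.05 RPKM, then the ligand Dll1 at 15.4 ± 1.90 RPKM and Atoh1 at 15.0 ± 1.34 RPKM, a pair that did not differ beyond its spread. The other genes were lower, with Dll4 at 6.36 ± 0.263 RPKM, Notch1 at 4.53 ± 0.120 RPKM, Notch2 at 3.69 ± 0.195 RPKM, Jag1 at 2.79 ± 0.236 RPKM and Gfi1 at 2.40 ± 0.298 RPKM, and the last pair lay within reach of each other's spread. Hey1 was at 0.0495 ± 0.0497 RPKM.

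The order in DMSO at 24 h kept Hes1 on top at 43.8 ± 1.15 RPKM. Dll1 at 13.1 ± 0.402 RPKM and Nrarp at 12.98 ± 1.24 RPKM were level, Atoh1 stood at 8.10 ± 0.482 RPKM, and Dll4 at 4.37 ± 0.430 RPKM, Notch1 at 4.34 ± 0.196 RPKM and Notch2 at 3.88 ± 0.269 RPKM lay together. Jag1 at 3.32 ± 0.193 RPKM and Gfi1 at 1.22 ± 0.127 RPKM came last of the tested genes. Levels of the 2 experiments were normalised separately and were not compared with each other.

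Of the 9 tested genes, 5 share exon bases with a transcript of the opposite strand, which matters where strand was lost. Nrarp shares 2051 exon bases with Gm38287, whose own counts ran from 499 to 996 in the genotype libraries, where Nrarp held 636 to 1272, but from 32 to 122 in the stranded Senexin B libraries, where Nrarp held 853 to 1760. In the genotype experiment the reads of this pair cannot be told apart. For Notch1 (1068 bases shared with 0610009E02Rik and 414 with Gm13568), Dll1 (867 bases with A930024N18Rik), Dll4 (214 bases with Gm14207) and Gfi1 (101 bases with A430072P03Rik) the shared stretch was a smaller part of the gene's exons.

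The promoters of Notch1, Jag1 and Nrarp are shown because Notch1 and Jag1 were called in both experiments and Nrarp had the largest change at 24 h of Senexin B. The sequences are the 250 bases before the RefSeq start (GRCm38.p6), without bases that lie in an annotated exon, on the strand of the gene from 5′ to 3′, and capitals mark the E-box CACGTG that Hes and Hey repressors can bind.
Notch1 (chr2:26503825-26504072, minus strand): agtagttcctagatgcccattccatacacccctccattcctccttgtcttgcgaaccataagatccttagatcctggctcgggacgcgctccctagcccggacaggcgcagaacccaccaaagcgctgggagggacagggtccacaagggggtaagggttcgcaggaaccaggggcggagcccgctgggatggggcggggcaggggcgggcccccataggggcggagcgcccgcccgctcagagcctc
Jag1 (chr2:137116645-137116770, minus strand): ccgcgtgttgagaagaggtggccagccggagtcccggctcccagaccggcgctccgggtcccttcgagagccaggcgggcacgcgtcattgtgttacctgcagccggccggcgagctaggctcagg
Nrarp (chr2:25180508-25180757, plus strand): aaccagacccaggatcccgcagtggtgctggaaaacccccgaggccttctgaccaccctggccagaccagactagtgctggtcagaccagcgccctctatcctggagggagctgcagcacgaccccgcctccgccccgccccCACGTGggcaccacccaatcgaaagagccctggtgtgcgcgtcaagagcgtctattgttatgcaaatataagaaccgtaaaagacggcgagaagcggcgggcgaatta
The core of the RBPJ site, TGGGAA or TTCCCA on either strand, was found in none of the windows of the 8 genes with an entry, counting 0 of 8 at the nearest start, against 21.6% of all 32851 windows. CACGTG was found in 1 of 8, that of Nrarp, against 6.02% of all windows. These are matches of letters in a short window only, and Hes1 and Hey1 had no entry.

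In the libraries labelled Cdk8-/-, Notch1 was lower and Jag1 higher than in WT, and these were the 2 of 9 tested genes called at an adjusted p under 0.05, against 5.15% of all 15602 genes tested. Notch1, a Notch receptor of crypt stem and progenitor cells, measured 45.4, 46.4 and 42.8 CPM in replicates 1 to 3 labelled Cdk8-/- and 66.3, 64.1 and 62.9 CPM in WT. Every Cdk8-/- library lay below every WT library, and the replicates of each group were close together. The log2 fold change was -0.52 (95% confidence interval -0.79 to -0.25, adjusted p = 0.0347), a 1.44-fold lower level.

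Jag1, a ligand of Notch receptors, measured 21.0, 25.4 and 21.0 CPM in the libraries labelled Cdk8-/- against 16.5, 17.5 and 14.7 CPM in WT. The groups did not overlap, as held for 29.6% of all genes tested. Its log2 fold change was 0.47 (0.22 to 0.72, adjusted p = 0.0405), or 1.38-fold. Both calls were lost when any single library of these 6 was left out, with adjusted p between 0.0593 (without Cdk8-/- replicate 2) and 0.130 (without WT replicate 1) for Notch1, and between 0.0649 (without Cdk8-/- replicate 1) and 0.140 (without WT replicate 3) for Jag1.

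Atoh1, the factor that commits cells to the secretory lineage, measured 43.4, 37.1 and 35.3 CPM with the Cdk8-/- label and 28.6, 33.7 and 33.4 CPM in WT. Its log2 fold change of 0.28 (-0.11 to 0.66, adjusted p = 0.406) was not called, although the groups did not overlap. Hes1, the repressor of Atoh1, measured 113, 127.9 and 116 CPM against 131, 128 and 132 CPM in WT, with replicate 2 at the lower edge of the WT range, and its log2 fold change was -0.13 (-0.31 to 0.04, adjusted p = 0.368). Nrarp was 58.1, 74.3 and 81.7 CPM against 56.0, 49.6 and 65.2 CPM, a log2 fold change of 0.33 with overlapping groups (-0.04 to 0.69, adjusted p = 0.288). The log2 fold changes of Gfi1, which acts after Atoh1 in the secretory lineage (0.23, adjusted p = 0.549), Notch2 (-0.16, adjusted p = 0.446), Dll1 (0.04, adjusted p = 0.912) and Dll4 (-0.02, adjusted p = 0.944) were not called either. The median over the 9 genes was 0.04, beside 0.01 over all genes tested.

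No gene of the 9 was called in the libraries labelled Cdk19-/-, nor was any of the 15602 genes tested (0%), although 1691 of them had an unadjusted p under 0.05 by edgeR and DESeq2 called 309, none of them among these 9 genes. Notch1 measured 71.3, 86.6 and 86.9 CPM, all above the WT libraries, and its log2 fold change was 0.34 (0.07 to 0.61, adjusted p = 0.304). Hes1 was 139, 147 and 147 CPM, also above every WT value, with a log2 fold change of 0.15 (-0.03 to 0.32, adjusted p = 0.558). Dll4, a ligand, was 26.6, 29.5 and 27.5 CPM against 23.4, 25.4 and 24.7 CPM in WT, with a log2 fold change of 0.18 (-0.11 to 0.48, adjusted p = 0.707). These 3 genes had groups that did not overlap, a state found for 20.0% of all genes.

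The other 6 genes overlapped with WT. Atoh1 was spread widely in the libraries labelled Cdk19-/-, at 35.5, 24.1 and 21.3 CPM (log2 fold change -0.24, adjusted p = 0.711), and the highest of these was replicate 1, the library with Cdk19 at the WT level. Nrarp was likewise highest there, at 57.2 CPM against 41.4 and 44.3 CPM in the others (log2 fold change -0.26, adjusted p = 0.651). In double knockout replicate 3, which also has Cdk19 at the WT level, Atoh1 lay inside the range of its group and Nrarp was the lowest. A link to the level of Cdk19 was not tested. Jag1 (-0.18, adjusted p = 0.642), Notch2 (0.11, adjusted p = 0.812), Dll1 (0.06, adjusted p = 0.940) and Gfi1 (-0.06, adjusted p = 0.952) completed the set. Without both libraries that had Cdk19 at the WT level, still 0 of the 9 genes were called.

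The double knockout libraries showed lower Notch1, lower Dll4 and higher Jag1 than WT, which made 3 of 9 genes called against 17.3% of all genes tested. Notch1 measured 48.3, 34.5 and 35.6 CPM in the libraries labelled double knockout, all below the WT libraries, and replicate 1 was the highest. The log2 fold change of Notch1 was -0.71 (-0.98 to -0.44, adjusted p = 0.00331), or 1.63-fold lower. Jag1 measured 28.7, 26.2 and 25.9 CPM, a tight group above all WT libraries, with a log2 fold change of 0.73 (0.48 to 0.98, adjusted p = 0.00195), or 1.66-fold. The calls of Notch1 and Jag1 held without each library in turn and without both libraries with Cdk19 at the WT level.

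Dll4 measured 13.5, 20.0 and 16.8 CPM in the double knockout libraries and 23.4 to 25.4 CPM in WT. The groups did not overlap, as for 38.8% of all genes tested, and the log2 fold change was -0.55 (-0.85 to -0.25, adjusted p = 0.0181). That call was lost without WT replicate 2 (adjusted p = 0.0666) or without double knockout replicate 1 (adjusted p = 0.0557). Dll1, the other Delta ligand of the set, was 62.7, 48.5 and 52.1 CPM against 58.8, 61.9 and 74.0 CPM in WT, with overlapping groups and a log2 fold change of -0.25 (-0.58 to 0.07, adjusted p = 0.264).

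Hes1 measured 140.5, 134 and 119.9 CPM in the double knockout libraries and 131, 128 and 132 CPM in WT. The WT values lay inside the range of the double knockout values, and the log2 fold change was 0.01 (-0.16 to 0.18, adjusted p = 0.938). Nrarp measured 83.6, 76.1 and 60.7 CPM, 2 libraries above the WT range and replicate 3 inside it (log2 fold change 0.37, 0.00 to 0.73, adjusted p = 0.152). Without both libraries that had Cdk19 at the WT level, of which double knockout replicate 3 is one, the log2 fold change of Nrarp was 0.49 (adjusted p = 0.0441).

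Neither secretory factor was called in the double knockout libraries. Atoh1 measured 23.7, 32.9 and 29.2 CPM against 28.6 to 33.7 CPM in WT, with a log2 fold change of -0.16 (-0.54 to 0.23, adjusted p = 0.585). Gfi1 was 5.26, 7.51 and 8.64 CPM against 7.20, 8.73 and 6.99 CPM, with a log2 fold change of -0.10 (-0.52 to 0.33, adjusted p = 0.771). Both groups overlapped for both genes. Notch2 had a log2 fold change of -0.23 (-0.48 to 0.02, adjusted p = 0.184). The median over the 9 genes was -0.16, beside -0.01 over all genes tested.

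**Figure D1:**
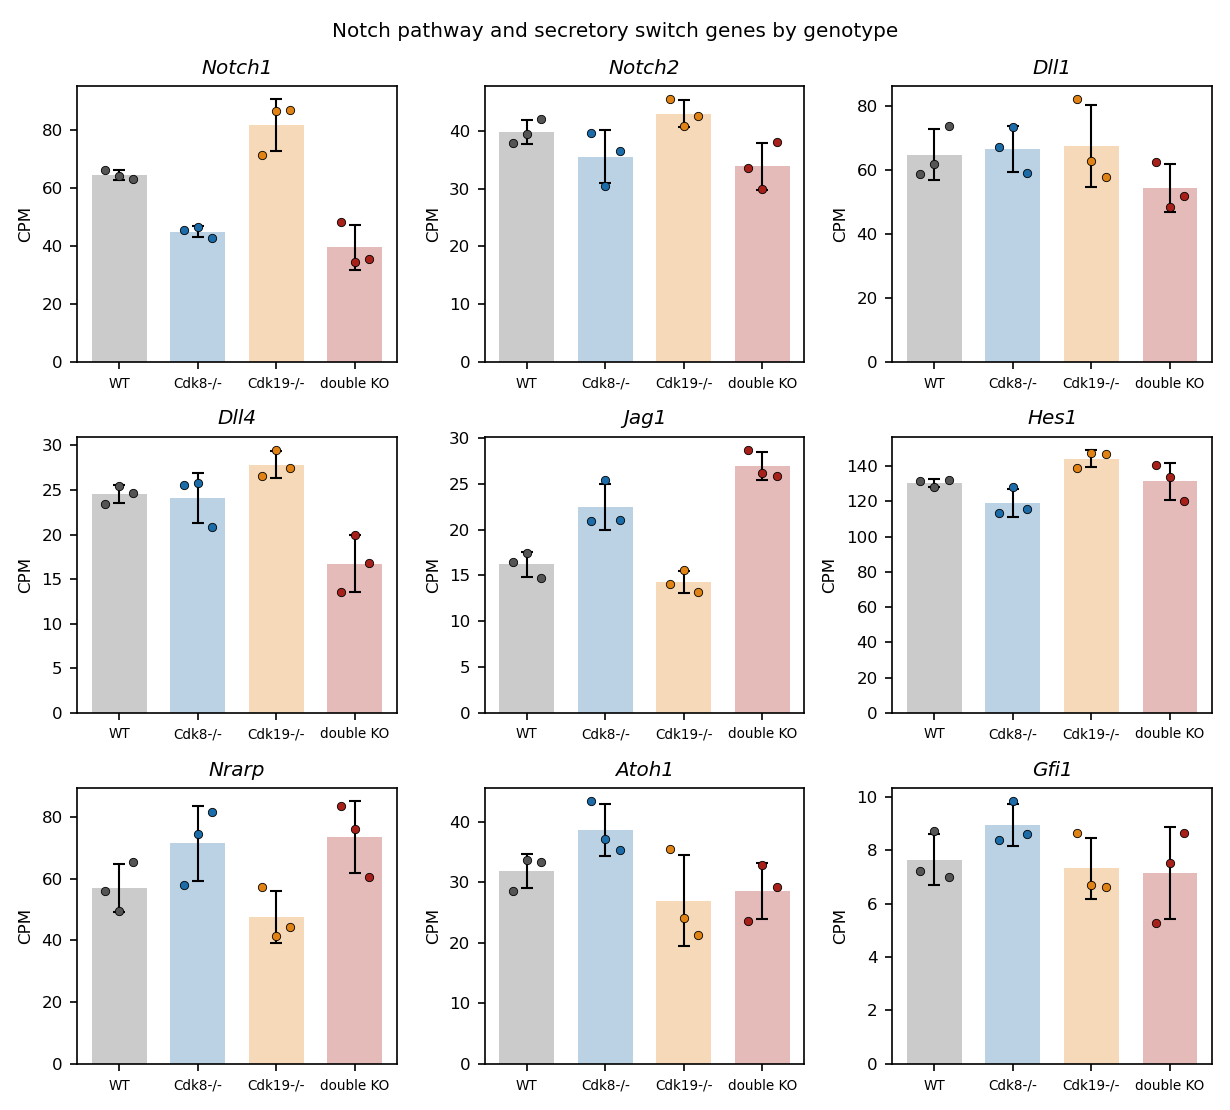
Level of each tested gene in CPM (vertical axis, from 0) in WT, Cdk8-/-, Cdk19-/- and double knockout (KO) libraries, named by their labels; points are libraries, bars the mean and error bars the SD (n = 3). Notch1 sits between 34.5 and 48.3 CPM in all 6 libraries labelled Cdk8-/- or double KO and at 62.9 CPM or more in the others, and Jag1 shows the mirror pattern.

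The libraries labelled double knockout, of which replicate 3 has Cdk19 at the WT level, were set against those labelled Cdk8-/-. By edgeR, 0 of the 9 genes were called (4 of 15602 genes, 0.0256%, were called, and 2417 had an unadjusted p under 0.05). Without both libraries with Cdk19 at the WT level the count was also 0. Dll4 came nearest: its 3 double knockout values, at 13.5 to 20.0 CPM, all lay below the 25.6, 25.8 and 20.9 CPM of Cdk8-/-, and its log2 fold change was -0.52 (-0.82 to -0.23, adjusted p = 0.142). Dll4 passed with DESeq2 (adjusted p = 0.0324), which called 407 of all 13620 genes with an adjusted p, and, in edgeR, without Cdk8-/- replicate 3, the lowest of its group (adjusted p = 0.0337). Atoh1 was lower in every double knockout library than in every Cdk8-/- library, with a log2 fold change of -0.43 (-0.82 to -0.05, adjusted p = 0.277). Jag1 was higher in every one, at 0.26 (0.01 to 0.51, adjusted p = 0.299). Groups that did not overlap were found for 15.8% of all genes in this comparison.

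The departure of the double knockout from the sum of both single changes, on the log2 scale, was called for 0 of the 9 genes by edgeR, against 0.0256% of all genes tested, with 2269 genes at an unadjusted p under 0.05 and 490 called by DESeq2. Its size was -0.71 for Dll4 (-1.13 to -0.29, adjusted p = 0.135), which DESeq2 called (adjusted p = 0.0299). The edgeR call also appeared without Cdk8-/- replicate 3 (adjusted p = 0.0498). For Notch1 the departure was -0.53 (adjusted p = 0.209) and for Jag1 0.45 (adjusted p = 0.245), while the interval of Hes1 was -0.25 to 0.24.

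After 16 h of Senexin B, Nrarp and Gfi1 rose and Notch1 fell, 3 of 9 genes against 7.75% of the 15467 genes tested. Deviations of same-numbered libraries of this experiment correlated at 0.101 to 0.303 at 16 h and 0.137 to 0.377 at 24 h. Libraries of different number reached 0.154 and 0.147, so that a pairing is not settled. Values with the replicate number as a block are given where they change a call. Nrarp measured 54.2, 48.6 and 44.5 CPM with Senexin B and 36.7, 35.6 and 35.4 CPM with DMSO. The groups did not overlap, as for 24.8% of all genes, and the log2 fold change was 0.45 (0.26 to 0.64, adjusted p = 0.00613), or 1.37-fold, a call that held without each library in turn.

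Notch1 measured 43.3, 40.6 and 45.1 CPM with Senexin B at 16 h and 57.1, 59.0 and 48.3 CPM with DMSO, where replicate 3 was the lowest. Every treated library lay below every control, and the log2 fold change was -0.35 (-0.55 to -0.16, adjusted p = 0.0302). Gfi1, at a low level, measured 4.98, 4.66 and 3.88 CPM against 2.09, 3.60 and 2.52 CPM, and its log2 fold change was 0.72 (0.29 to 1.14, adjusted p = 0.0419). The Notch1 call was lost without any of DMSO replicates 1 (adjusted p = 0.0514) or 2 (0.111) or Senexin B replicates 1 (0.0786), 2 (0.136) or 3 (0.0603). That of Gfi1 was lost without any of DMSO replicates 1 (adjusted p = 0.0912) or 3 (0.117) or Senexin B replicates 1 (0.136), 2 (0.115) or 3 (0.0552).

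The replicate block raised the count at 16 h to 6 of 9 by calling another 3 genes, while it raised the genes called of all 15467 from 1198 to 2338. Dll1 measured 58.5, 59.2 and 59.2 CPM, all above the 44.7, 55.4 and 50.5 CPM of DMSO (log2 fold change 0.23, adjusted p = 0.0743, with the block 0.0281 and by DESeq2 0.0453). Hes1 was 128, 122 and 124 CPM against 107, 102 and 118 CPM, also without overlap (log2 fold change 0.19, adjusted p = 0.0959, with the block 0.0392). Jag1 was 24.0, 27.3 and 25.1 CPM against 17.3, 24.5 and 21.1 CPM, where the groups overlapped (log2 fold change 0.28, adjusted p = 0.128, with the block 0.0225). Without DMSO replicate 2, Dll1 (adjusted p = 0.0262) and Jag1 (0.0339) were called in edgeR without the block, and without DMSO replicate 3 Hes1 was (0.0421). Dll4 (-0.11, adjusted p = 0.613) and Notch2 (0.07, adjusted p = 0.726) were not called. Atoh1 measured 16.6, 19.6 and 15.0 CPM against 14.9, 19.2 and 15.5 CPM, and its log2 fold change was 0.05 (-0.21 to 0.30, adjusted p = 0.868). The median over the 9 genes was 0.19, beside -0.01 over all genes tested.

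By 24 h of Senexin B, 5 of 9 genes were called, with Nrarp, Dll1, Jag1 and Hes1 higher and Notch1 lower, against 27.5% of all genes tested. Nrarp showed the largest change of the set at 56.4, 63.5 and 64.6 CPM against 29.9, 34.6 and 36.0 CPM with DMSO. No treated library came near a control, and the log2 fold change was 0.88 (0.69 to 1.07, adjusted p = 2.19e-05), or 1.84-fold.

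Notch1 measured 49.8, 41.0 and 41.5 CPM with Senexin B at 24 h and 64.6, 59.0 and 61.7 CPM with DMSO. The groups were well apart, as groups without overlap were for 45.6% of all genes, and the log2 fold change was -0.49 (-0.68 to -0.29, adjusted p = 0.00162), or 1.40-fold lower. Dll1 measured 71.5, 76.3 and 76.9 CPM against 55.2, 56.7 and 53.3 CPM. It was higher in all 3 treated libraries, with a log2 fold change of 0.44 (0.28 to 0.60, adjusted p = 0.000783), or 1.36-fold.

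Hes1 measured 104, 111 and 114 CPM with Senexin B at 24 h and 86.5, 90.6 and 90.6 CPM with DMSO, again without overlap, and its log2 fold change was 0.30 (0.16 to 0.44, adjusted p = 0.00510), or 1.23-fold. Jag1 measured 24.6, 25.3 and 26.2 CPM against 18.6, 20.7 and 18.9 CPM. Its groups did not overlap and its log2 fold change was 0.39 (0.16 to 0.62, adjusted p = 0.0152), or 1.31-fold. The Jag1 call was lost without DMSO replicate 1 (adjusted p = 0.0547) or Senexin B replicate 3 (adjusted p = 0.0555), whereas those of Nrarp, Notch1, Dll1 and Hes1 held without each library in turn.

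Gfi1 at 6.42, 4.44 and 4.99 CPM against 4.35, 3.56 and 3.79 CPM was above all controls, with a log2 fold change of 0.44 (adjusted p = 0.102, with the replicate block 0.0406). Dll4 at 15.1, 14.4 and 13.5 CPM against 18.8, 16.0 and 15.7 CPM was below all controls, with a log2 fold change of -0.23 (adjusted p = 0.135, with the replicate block 0.0387). Notch2 was 38.7, 35.0 and 34.4 CPM against 45.1, 39.7 and 40.8 CPM, with a log2 fold change of -0.22 (-0.42 to -0.01, adjusted p = 0.108). Atoh1 measured 18.9, 15.7 and 16.9 CPM against 18.1, 16.1 and 17.4 CPM, and the interval of its log2 fold change ran from -0.25 to 0.25 (adjusted p = 0.999). The median over the 9 genes was 0.30, beside 0.00 over all genes tested.

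**Figure D2:**
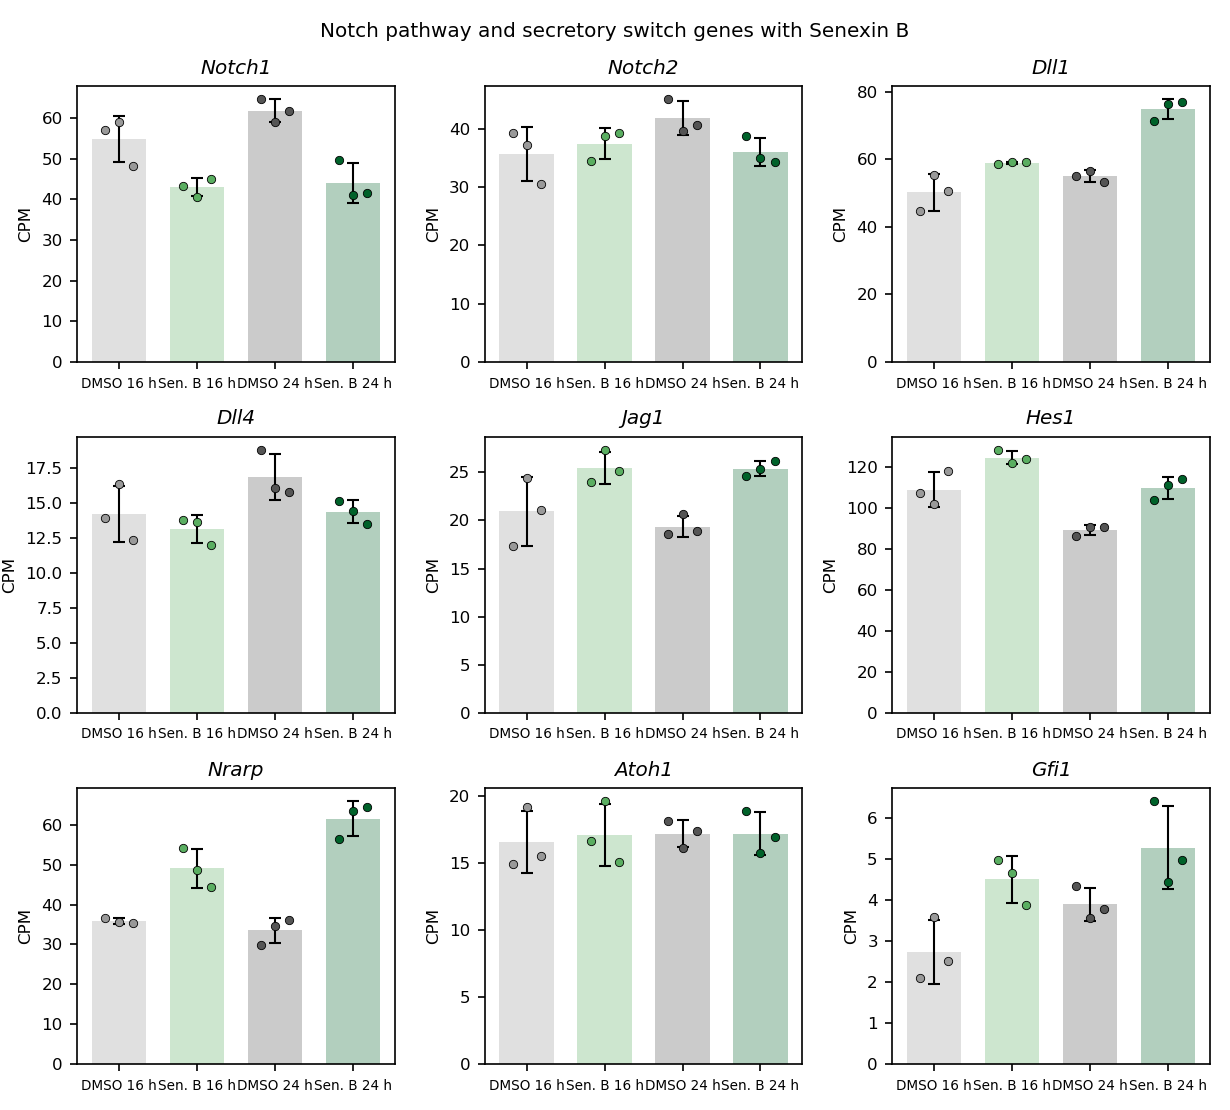
Level of each tested gene in CPM (vertical axis, from 0) after 16 or 24 h of DMSO or Senexin B (Sen. B); points are libraries, bars the mean and error bars the SD (n = 3). Nrarp sits at 44.5 CPM or more in all 6 treated libraries and at 36.7 CPM or less in all 6 controls, whereas the Atoh1 points of the 4 groups overlap.

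The time in DMSO alone moved 1 of the 9 genes, against 11.1% of all genes tested. Hes1 was lower at 24 h than at 16 h, at 86.5 to 90.6 CPM against 102 to 118 CPM, a log2 fold change of -0.29 (-0.43 to -0.15, adjusted p = 0.0164). This call was lost without DMSO 16 h replicate 3 (adjusted p = 0.0812) or DMSO 24 h replicate 1 (adjusted p = 0.0721), and 3 genes, Dll4, Gfi1 and Hes1, were called without DMSO 16 h replicate 2. The difference between the Senexin B effects at 24 and 16 h was called for 0 of the 9 genes and for 0% of all genes, with 1995 genes at an unadjusted p under 0.05 by edgeR and 66 called by DESeq2. Its largest member value was that of Nrarp, 0.42 (0.16 to 0.69, adjusted p = 0.268), which was called with the replicate block (0.43, adjusted p = 0.0345).

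Set side by side, 7 of the 9 genes had the same sign in the double knockout and at 24 h of Senexin B. Notch1 and Jag1 were the 2 genes called in both with the same sign. Of all genes tested, 17.3% were called in the former and 27.5% in the latter, and the share called in both was not counted. Notch1 had log2 fold changes of -0.71 and -0.49, and Jag1 of 0.73 and 0.39. Opposite signs were found for Dll1, at -0.25 in the double knockout and 0.44 with Senexin B, of which only the latter was called, and for Gfi1, at -0.10 and 0.44, neither called, and the difference between the 2 experiments was not tested. Notch2 and Atoh1 were not called by edgeR with all libraries in any comparison with WT or DMSO, nor in that of double knockout with Cdk8-/-.

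**Figure D3:**
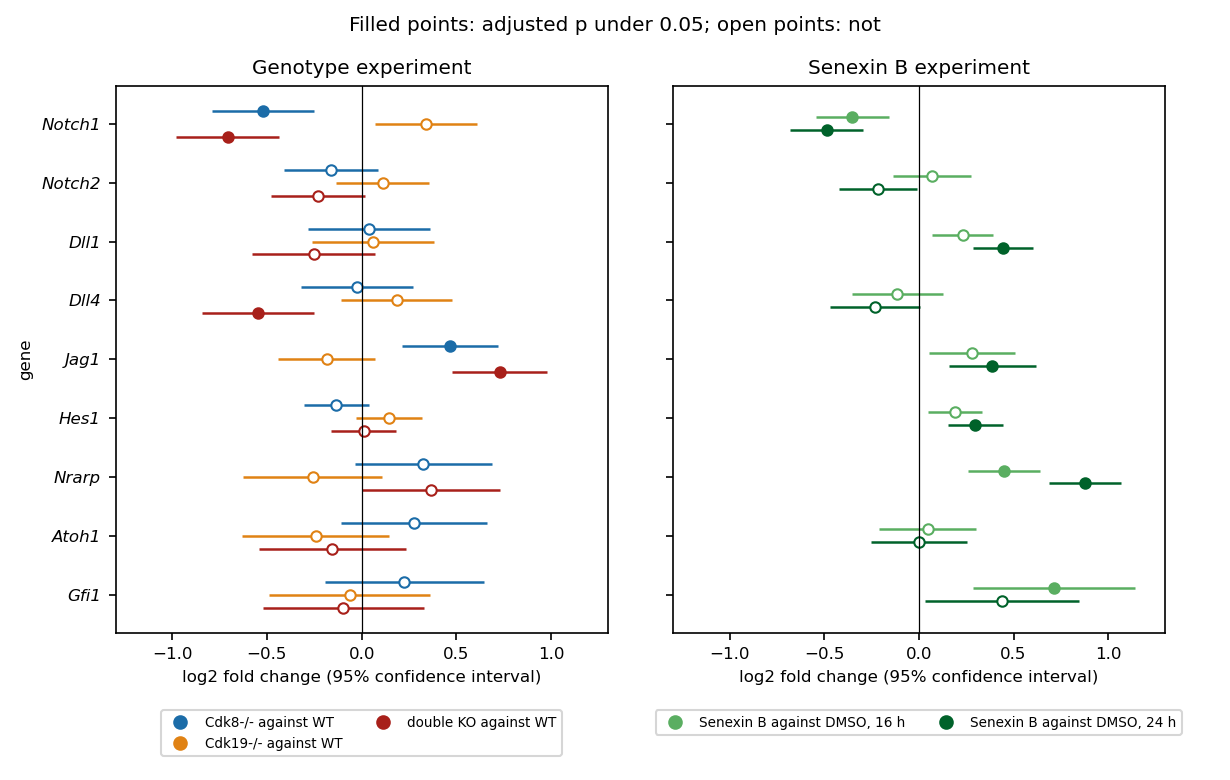
Fitted log2 fold change of each tested gene (horizontal axis, 0 at the black line) with its 95% confidence interval, against WT on the left and against DMSO of the same time on the right; filled points have an adjusted p under 0.05. Notch1 is left of 0 and Jag1 right of it in every comparison except that of Cdk19-/- with WT, and Atoh1 intervals cross 0 in all 5.

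Among 48 other genes of the pathway, 44 were tested in the genotype experiment and 43 in the Senexin B experiment. In the libraries labelled Cdk8-/-, 1 was higher and 1 lower of the 44, near the 5.15% called of all genes, and in the double knockout libraries 2 were higher and 2 lower, a smaller share than the 17.3% of all genes. The receptor Notch3 was the highest of them by fold. Its level was 3.98, 4.10 and 4.05 CPM with the Cdk8-/- label and 4.78, 6.26 and 5.78 CPM in the double knockout libraries, against 1.28, 1.51 and 1.47 CPM in WT. Neither group overlapped with WT, and the log2 fold changes of Notch3 were 1.50 (adjusted p = 0.00278) and 1.98 (adjusted p = 0.000283). With Senexin B the same receptor was lower, at 4.08, 3.56 and 2.94 CPM against 4.87, 6.31 and 6.27 CPM with DMSO at 24 h (log2 fold change -0.72, adjusted p = 0.00355) and by -0.61 at 16 h (adjusted p = 0.0197).

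Lfng, a glycosyltransferase that modifies Notch receptors, was 21.7, 21.0 and 21.4 CPM in the double knockout libraries against 45.9, 50.04 and 41.8 CPM in WT. These groups lay far apart, with a log2 fold change of -1.10 (adjusted p = 0.00259). With the Cdk8-/- label Lfng was 38.6, 33.9 and 20.3 CPM, a wide spread below WT that was not called by edgeR (-0.57, adjusted p = 0.0956) but was by DESeq2 and by edgeR with no filter. Numbl, a relative of the Notch inhibitor Numb, was also lower in the double knockout libraries (-0.87, adjusted p = 0.0344). The co-activator Maml3 was the gene lower in the libraries labelled Cdk8-/- (-0.40, adjusted p = 0.0480). Notch3 kept its call in both comparisons, and Lfng in the double knockout, without each library in turn, whereas 2 of the 44 were called in the double knockout without WT replicate 1, 2 or 3, and Maml3 was lost without any of these 6 libraries other than Cdk8-/- replicate 3. None of the 44 was called with the Cdk19-/- label by edgeR, and 1, Dtx4, which is named here after its value was seen, was called by DESeq2 and without Cdk19-/- replicate 1.

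With Senexin B, 1 of the 43 other pathway genes was higher and 2 lower at 16 h (9 called in all with the replicate block, 5 without DMSO replicate 1, 1 without DMSO replicate 3 or Senexin B replicate 2, and 0 without DMSO replicate 2 or Senexin B replicate 1 or 3), and 5 were higher and 14 lower at 24 h, where their median log2 fold change was -0.16. Of all genes tested, 7.75% were called at 16 h and 27.5% at 24 h. The count of 19 at 24 h was 11 without Senexin B replicate 2 and 12 without replicate 3. Those called at 16 h were Numbl (-0.89, adjusted p = 0.0272), Notch3 and Neurl1b, a ubiquitin ligase that acts on Notch ligands (0.36, adjusted p = 0.0358). At 24 h the largest changes were those of Hes2 (-1.32, adjusted p = 0.00295), Hes7 (-0.996, adjusted p = 0.0112), Numbl (-0.98, adjusted p = 0.00672) and Neurl1b (0.78, adjusted p = 9.83e-05). Hes2 and Hes7 are relatives of Hes1, so that members of the Hes family moved in both directions. In DMSO from 16 to 24 h, 5 were higher and 1 lower against 11.1% of all genes called, led by Maml2 (0.98, adjusted p = 0.00939), Hes6 (-0.53, adjusted p = 0.00924), Cir1 (0.50, adjusted p = 0.00479) and Kdm5a (0.47, adjusted p = 0.0103).

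All 22 further transcription factors of the secretory lineage were tested. In the libraries labelled Cdk8-/-, 3 were higher and 0 lower, namely Bhlha15 (1.01, adjusted p = 0.0442), a factor of secretory cell maturation, Spdef (0.69, adjusted p = 0.0451), which drives goblet and Paneth maturation, and Creb3l1 (0.59, adjusted p = 0.0429), a factor of the secretory apparatus. In the double knockout libraries 0 were higher and 5 lower, namely Pou2f3 (-1.66, adjusted p = 0.00500), the tuft cell factor, Sox9 (-0.87, adjusted p = 0.00288), a factor of crypt base and Paneth cells, Sox4 (-0.58, adjusted p = 0.0173), Foxa3 (-0.48, adjusted p = 0.0226) and Foxa2 (-0.39, adjusted p = 0.0157). Of all genes tested, 5.15% were called with the Cdk8-/- label and 17.3% in the double knockout, so that 5 of 22 is near the share of all genes. The calls with the Cdk8-/- label were all lost without any WT library or Cdk8-/- replicate 1 or 2, and Creb3l1 alone remained without replicate 3. In the double knockout, Pou2f3 and Sox9 kept their calls without each library in turn, and 3 of the 5 factors were called without WT replicate 3 or double knockout replicate 1. The direct comparison of both genotypes called 0 of the 22 by edgeR, 4 by DESeq2, which called 407 of all 13620 genes with an adjusted p, and 2 by edgeR, Foxa3 and Pou2f3, without Cdk8-/- replicate 3. None was called with the Cdk19-/- label by edgeR, and 1, Neurog3, named here after its value was seen, was called by DESeq2 and without Cdk19-/- replicate 1.

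With Senexin B, 4 of the 22 factors were higher and 3 lower at 16 h, where 7.75% of all genes were called, and 5 were higher and 3 lower at 24 h, where 27.5% were. The largest at 16 h were Pax6 (1.18, adjusted p = 0.0138), Bhlha15 (-0.65, adjusted p = 0.0499), Pax4 (0.43, adjusted p = 0.0218) and Spdef (0.43, adjusted p = 0.0159). Pax4 and Pax6 are factors of enteroendocrine cells. The count of 7 at 16 h was 0 without Senexin B replicate 2, 2 without DMSO replicate 3, 3 without Senexin B replicate 3 and 4 without Senexin B replicate 1. At 24 h Bhlha15 was lower (-0.81, adjusted p = 0.00706), and Pax4 (0.56, adjusted p = 0.00133), Nkx2-2 (0.51, adjusted p = 0.0118), also of enteroendocrine cells, and Spdef (0.47, adjusted p = 0.00326) were higher. In DMSO over time 3 of 22 rose, near the 11.1% of all genes called, namely Insm1 (0.46, adjusted p = 0.0205), Pax4 (0.38, adjusted p = 0.0343) and Sox9 (0.33, adjusted p = 0.0165), with 0 called without DMSO 16 h replicate 3 or DMSO 24 h replicate 1, 1 without DMSO 24 h replicate 2 or 3, and 5 without DMSO 16 h replicate 2.

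Markers of the cell types that this switch divides moved in the same libraries, and in bulk RNA fewer cells of a type and less RNA per cell cannot be told apart. Of all genes tested, 5.15% were called with the Cdk8-/- label and 17.3% in the double knockout. With Senexin B, 7.75% were called at 16 h and 27.5% at 24 h. All 6 Paneth cell markers were higher in the libraries labelled Cdk8-/- (median log2 fold change 1.56) and in the double knockout libraries (1.38), as Lyz1, the lysozyme of Paneth cells, was by 2.01 and 2.13. None overlapped with WT in the former, but Mmp7 and Defa24 did in the double knockout libraries. With Senexin B, 2 of the 6 were lower at 16 h (5 with the replicate block, 0 without Senexin B replicate 3 and 1 without DMSO replicate 2 or 3 or Senexin B replicate 1) and 5 at 24 h (median -0.90, 6 with the block), with 5 also without each library in turn. The markers summed to 1288 to 1706 CPM in WT, 3956 to 5260 CPM with the Cdk8-/- label, 2544 to 5200 CPM in double knockouts, 2866 to 3069 CPM in DMSO at 24 h and 1304 to 1774 CPM in Senexin B at 24 h. Between 4 and 6 remained called without single libraries in each genotype comparison, and 4 in the double knockout without both libraries with Cdk19 at the WT level. The 2 defensins among them, Defa17 and Defa24, belong to a family of near-identical copies between which reads may be split.

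None of these markers was called with the Cdk19-/- label by edgeR, where all 7 goblet and all 8 enterocyte markers had negative and all 6 stem cell markers positive log2 fold changes (medians -0.43, -0.51 and 0.39). Of 7 goblet cell markers, 2 were higher with the Cdk8-/- label and in the double knockout, Muc2 by 0.98 in Cdk8-/- and 1.36 in double knockouts, and 3 were higher at 16 h and 4 higher and 1 lower at 24 h of Senexin B (with the replicate block 1 more was lower at each time). In the double knockout, 2 of 7 goblet and 1 of 5 tuft cell markers are near the 17.3% of all genes called. At 24 h of Senexin B, 3 of 8 enterocyte and 2 of 6 stem cell markers are near the 27.5% of all genes. The goblet list summed to 2319 to 3249 CPM in WT, 3584 to 4133 CPM with the Cdk8-/- label and 2877 to 4689 CPM in double knockouts, and to 2987 to 3363 CPM in Senexin B at 24 h against 3469 to 3950 CPM in DMSO, so that every treated library had the lower sum although more of the markers called were higher. By DESeq2 the goblet count was 3 in Cdk8-/- and 4 in double knockouts, and with unstranded counts 3 in double knockouts. The goblet count of 2 fell to 1 without WT replicate 1 or 2 in both genotype comparisons and without double knockout replicate 2, and rose to 4 without double knockout replicate 1 or without both libraries with Cdk19 at the WT level. Of 6 stem cell markers, Lgr5 was lower with the Cdk8-/- label (-0.86, adjusted p = 0.00801), and 4 were lower in the double knockout libraries, where the list summed to 2791 to 2908 CPM against 3504 to 3879 CPM in WT. Lgr5 was also lower at 24 h of Senexin B (-0.97, adjusted p = 0.000112), while Slc12a2 was higher (0.44, adjusted p = 0.0128), and 2 stem cell markers were higher with the block, 0 were higher without DMSO replicate 2, and 2 were lower without Senexin B replicate 1. Enteroendocrine markers were called in neither genotype comparison with all libraries, although in the double knockout 1 was lower without WT replicate 3 and 1 higher without double knockout replicate 1, and 3 and 5 of 7 were higher at 16 and 24 h of Senexin B, where the count at 16 h was 4 with the block, 1 without DMSO replicate 2 or 3 or Senexin B replicate 2 or 3, and 2 without Senexin B replicate 1. Of 5 tuft cell markers tested, 0 were called at 16 h (1 higher with the block) and 3 were higher at 24 h of Senexin B (4 with the block or without DMSO replicate 1, 2 without DMSO replicate 2 or Senexin B replicate 1). With the Cdk8-/- label all 5 had positive log2 fold changes (median 0.39), and 0 were called. In the double knockout libraries all 5 had negative log2 fold changes (median -0.68), and Dclk1 was called lower (-1.16, adjusted p = 0.0371), while 0 were called with the block or without WT replicate 1 or 2 or double knockout replicate 1 or 2, and 2 by DESeq2 or without double knockout replicate 3. Of 8 enterocyte markers, 4 were higher in the double knockout libraries (3 without any WT library or double knockout replicate 1, and 6 without both libraries with Cdk19 at the WT level). Apoa4 was higher with the Cdk8-/- label (1.09, adjusted p = 0.0357), a call lost without any WT library or Cdk8-/- replicate 1 or 3. With Senexin B, Sis was lower at 16 h (-0.73, adjusted p = 0.0138) and at 24 h (-0.92, adjusted p = 0.00124), and Apoa1 (0.51, adjusted p = 0.0418) and Fabp1 (0.27, adjusted p = 0.0139) were higher at 24 h, where 2 were lower with the block. At 16 h 0 were called without DMSO replicate 2 or Senexin B replicate 1 or 3, and 2 without DMSO replicate 1 or 3, and at 24 h those higher numbered 0 without DMSO replicate 3, and 1 without DMSO replicate 2 or any Senexin B library. Notch1 was lower and Jag1 higher both in the double knockout libraries, where Paneth markers were higher, and at 24 h of Senexin B, where 5 of them were lower, and the part of cell composition in the values of the 9 genes was not tested.

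**Figure D4:**
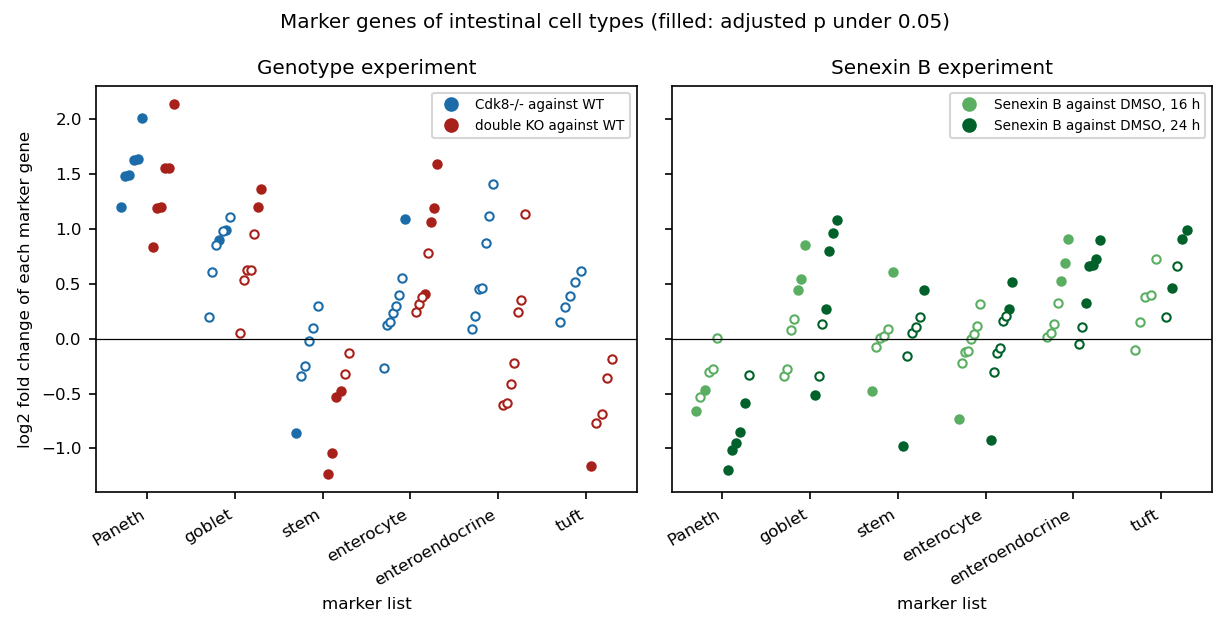
Fitted log2 fold change (vertical axis) of each tested marker gene of 6 intestinal cell types (horizontal axis), in the genotype experiment on the left and the Senexin B experiment on the right; each point is 1 gene, filled where the adjusted p is under 0.05. All 6 Paneth points are above 0 and filled in both genotype comparisons, and 5 of 6 are filled below 0 at 24 h of Senexin B.

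The genes whose level followed Hes1 and Atoh1 most closely over the 12 libraries of an experiment differed between the experiments. They are given as a description, since the libraries of a group share their treatment. In the genotype experiment, Hes1 was most like Clcn6 (Pearson's r = 0.897), Rcbtb2 (0.896) and Cpn1 (0.894), and Atoh1 most like Krt18 (0.952), Syngr2 (0.935) and Parl (0.932). In the Senexin B experiment, Hes1 was most like Cystm1 (0.986), Tomm40 (0.975) and Epop (0.970), and Atoh1, whose groups overlapped there, reached only 0.721 with Mdm4, 0.702 with Prdm15 and 0.696 with Mdn1.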

How the data were processed

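Per the labels, biological triplicates of organoid RNA were sequenced. The authors aligned the reads with STAR (2.6.0c in the submitters' processing notes) to GRCm38.p6 and deposited, for each library, counts of reads per gene, unstranded and by strand, of which those for the second strand were taken. Labels of the Senexin B libraries give rRNA depletion, while their protocol describes oligo(dT) selection; the dose of Senexin B comes from the study's methods. Rows for reads not on a single gene (63.1% to 65.2% of reads in the genotype and 21.5% to 25.1% in the Senexin B experiment, the reads of the other strand included) stayed out of library sizes and tests.

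Each experiment was fitted apart with edgeR 4.0.16 in R 4.3.3: filterByExpr, TMM factors, and the quasi-likelihood test over all 12 libraries with group as the only term. P-values were adjusted by Benjamini-Hochberg over all genes tested, and a gene was called at an adjusted p under 0.05. CPM used TMM-scaled library sizes, and RPKM divided them by the union of exons. The study's methods name DESeq2, which was an alternative here (1.42.0). Other alternatives were DESeq2 size factors, no filter, a minimum of 10 counts in every library, the unstranded counts, a replicate block, only the 2 groups compared, and leaving out each library. Leaving out both libraries with Cdk19 at the WT level, the contrast of Cdk8-/- with Cdk19-/-, and the alternatives for marker lists were chosen after seeing the data. The scripts were tested on simulated data.

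Deviations from the group means of same-numbered Senexin B and DMSO libraries correlated at 0.303, 0.101 and 0.110 at 16 h. At 24 h they correlated at 0.377, 0.137 and 0.187. Libraries of different number reached 0.154 at 16 h and 0.147 at 24 h, above some of the same-numbered values. Whether the numbers pair these libraries is therefore not settled, and the labels do not state it. The replicate block was an alternative only. Within groups, no 2 libraries agreed within counting noise (lowest chi-square per degree of freedom 2.31).

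The members and lists were chosen with earlier results of these data known. All 10 members are named; of the other lists, up to 4 called genes with the largest change per comparison (1 called gene is not reported here), and for Hes1 and Atoh1 the 3 genes of highest correlation. Positions and symbols came from GENCODE, and promoter windows from RefSeq, where 8 of 10 members matched.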

Additional observations from a re-analysis of the deposited data

Results flagged for a closer look

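Several values differed between the libraries labelled Cdk8-/- and those labelled Cdk19-/-. The direct comparison of these labels was added after the data were seen, called 4 of the 9 tested genes, and found 13.8% of all genes tested by edgeR past an adjusted p of 0.05. Notch1 was lower in Cdk8-/- than in Cdk19-/- by a log2 fold change of -0.86 (adjusted p = 0.00177), and Jag1 was higher by 0.65 (adjusted p = 0.00475). Both held under each of 13 alternatives. Cell type markers moved in the same comparison: 6 of 6 Paneth markers (median log2 fold change 1.35) and 6 of 7 goblet markers (median 1.49) were higher, 3 of 8 enterocyte markers were higher, and 3 of 6 stem cell markers were lower, Lgr5 by -1.36 (adjusted p = 0.000390). Their part in the values of the 9 genes was not tested.

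Hes1 was lower in Cdk8-/- than in Cdk19-/- by -0.28 (adjusted p = 0.0369, from 0.0104 to 0.123 over 13 alternatives). Nrarp was higher by 0.58 (adjusted p = 0.0375, from 0.00497 to 0.169). The Hes1 call was lost without Cdk8-/- replicate 1 (adjusted p = 0.123) or 3 (0.0763) or Cdk19-/- replicate 2 (0.112) or 3 (0.0918), and that of Nrarp without Cdk8-/- replicate 2 (0.0837) or 3 (0.135) or Cdk19-/- replicate 2 (0.169) or 3 (0.150). The Nrarp call was also lost with unstranded counts (0.0530), with the replicate block (0.0550) and with only the 2 groups compared (0.0574), and that of Hes1 with only the 2 groups (0.0957) and with no filter (0.0780). Atoh1, at 0.52 (adjusted p = 0.0725), was called without Cdk19-/- replicate 1, which has Cdk19 at the WT level (0.74, adjusted p = 0.00735), and with all libraries by DESeq2 (0.51, adjusted p = 0.0476) and with no filter (0.49, adjusted p = 0.0283), while its adjusted p reached 0.275 without Cdk19-/- replicate 3.

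Against WT, every library with the Cdk8-/- label lay on one side and every library with the Cdk19-/- label on the other for Hes1 (log2 fold changes of -0.13 and 0.15) and Notch1 (-0.52 and 0.34). Both contrasts share the 3 WT libraries, so that the direct comparison above is the test of the difference.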

How the results depend on the processing

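Each group held 3 libraries, and leaving out 1 ended several calls. Hey1, at 0 to 5 counts per library, was too low to be tested, so whether it changed is not known. The genotype libraries hold no strand information, and the 2 libraries with Cdk19 at the WT level were kept. The cause of the changes below was not tested, except where fewer libraries or genes entered the fit.

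Double knockout calls of Notch1 and Jag1, and 24 h calls of Nrarp, Notch1, Dll1 and Hes1, held under every alternative run, as did Nrarp at 16 h. The Cdk8-/- count of 2 genes became 1 with no filter, with the replicate block (Notch1 adjusted p = 0.0547) and with only the 2 groups compared. With the block, genes called at 16 h of Senexin B rose from 3 to 6 (2338 of all 15467), at 24 h from 5 to 7 (5872), the time difference from 0 to 1 (325), other pathway genes at 16 h to 9, secretory factors in DMSO over time to 6, and those with the Cdk8-/- label fell to 1; labels of the genotype libraries and of DMSO across times share only a number.

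DESeq2 called 1 of the 9 genes for double knockout against Cdk8-/- and 1 for the departure from additivity, 4 secretory factors for the former (407 of all 13620 genes), 1 other pathway gene and 1 secretory factor with the Cdk19-/- label (309 of 15354), and 5 secretory factors in DMSO over time (2289 of 12438). With no filter, 2 other pathway genes and 3 secretory factors were called with the Cdk19-/- label (479 of all 29805) and 5 secretory factors for double knockout against Cdk8-/- (358). With unstranded counts, 1 of the 9 genes and 5 other pathway genes were called at 16 h (Notch1 adjusted p = 0.0562, Gfi1 0.0648), and 2 other pathway genes in the double knockout. With only the 2 groups compared, counts were 1 of the 9 genes and 1 secretory factor at 16 h, 0 of the 9 genes, 3 other pathway genes and 0 secretory factors in DMSO over time, 2 and 1 other pathway genes in double knockout and Cdk8-/-, and 2 of the 9 genes for Cdk8-/- against Cdk19-/-. Without both libraries with Cdk19 at the WT level, 1 other pathway gene and 2 secretory factors were called with the Cdk19-/- label.

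Signs turned only for values never called. Hes1 departed from additivity by 0.0027 with DESeq2 size factors, 0.00047 with DESeq2 and 0.0349 without both libraries with Cdk19 at the WT level, where Atoh1 departed by 0.0405 and Dll1 with the Cdk19-/- label was -0.0902. Gfi1 with the Cdk19-/- label was 0.0509 with unstranded counts, and Atoh1 at 24 h was 0.00575 with no filter and 0.0119 unstranded.

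Without single libraries, counts of the 9 genes ranged over 0 to 0 for Cdk8-/-, 0 to 1 for double knockout against Cdk8-/- and for additivity, 2 to 5 for Cdk8-/- against Cdk19-/-, 1 to 4 at 16 h and 0 to 3 for DMSO over time. Other pathway genes ranged over 1 to 2 for Cdk8-/-, 0 to 1 for Cdk19-/-, 2 to 4 for double knockout, 0 to 2 for double knockout against Cdk8-/-, 0 to 5 at 16 h and 11 to 19 at 24 h. Secretory factors ranged over 0 to 1 for Cdk8-/- and for Cdk19-/-, 3 to 4 for double knockout, 0 to 2 for double knockout against Cdk8-/-, 0 to 6 at 16 h and 0 to 5 for DMSO over time.

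Log2 fold changes that crossed 0 without single libraries were, against WT, Dll1 (-0.0356 to 0.137) and Dll4 (-0.0759 to 0.0525) for Cdk8-/-, Dll1 (-0.0902 to 0.18) and Gfi1 (-0.185 to 0.0591) for Cdk19-/-, and Hes1 (-0.0265 to 0.0727) and Gfi1 (-0.26 to 0.0926) for double knockout. Between genotypes they were Notch2 (-0.168 to 0.0166) and Nrarp (-0.0877 to 0.175) for double knockout against Cdk8-/-, Dll1 (-0.153 to 0.115) for Cdk8-/- against Cdk19-/-, and Hes1 (-0.0541 to 0.0672) and Atoh1 (-0.337 to 0.0514) for additivity. In the Senexin B experiment they were Notch2 (-0.0309 to 0.145) and Atoh1 (-0.0557 to 0.167) at 16 h, Atoh1 (-0.0734 to 0.0592) at 24 h, Jag1 (-0.233 to 0.0126) and Atoh1 (-0.0133 to 0.176) for DMSO over time, and Jag1 (-0.0184 to 0.227) and Atoh1 (-0.167 to 0.0513) for the time difference.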
